A study of Mus musculus with 8 samples.

Results

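Artn and Gdnf, the genes of the secreted ligands artemin and glial cell line-derived neurotrophic factor (GDNF), were both measured lower in mouse striatal SThdh111/111 cells than in SThdh7/7 cells. The GDNF family comprises 4 ligand genes (Artn, Gdnf, Nrtn and Pspn), 4 co-receptor genes (Gfra1, Gfra2, Gfra3 and Gfra4) and the receptor kinase gene Ret. All non-control probe sets annotated to exactly 1 of these 9 genes were taken, which gave 16 probe sets of 45037 on the array and 9 genes of the 18193 named there. All 9 genes had at least 1 probe set, and all 16 passed the filter on dim probe sets. The genes had been chosen with the difference between the lines in view, so their values are a description and no p-value is given for them.

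Total RNA was profiled on Affymetrix whole-genome mouse arrays, with 4 samples of SThdh7/7 and 4 of SThdh111/111. Lines of these names are conditionally immortalised cells from the embryonic striatum of huntingtin knock-in mice, and both carry a temperature-sensitive large T antigen. Their names give the length of the glutamine stretch in huntingtin, which is expanded in Huntington's disease, and SThdh111/111 is the line with the expansion. Each genotype is represented by 1 line, so genotype and other differences between the lines cannot be told apart. Whether the samples were grown as separate cultures is not stated, so the p-values below reflect only the spread between these samples, which may be technical. The titles give no treatment, passage or time.

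GDNF family ligands are secreted dimers that do not bind Ret directly. Each binds a co-receptor anchored in the outer leaflet of the membrane, and the pair then brings Ret molecules together and starts their tyrosine kinase activity. Preferred pairs are GDNF with Gfra1, neurturin with Gfra2, artemin with Gfra3 and persephin with Gfra4. GDNF made in the striatum supports the dopamine axons that reach it, and GDNF and neurturin have been studied as protective factors for striatal neurons.

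The arrays limited what could be read at low levels. The floor used here was set by 27 bacterial control probe sets, at their 95th percentile on the array where that was highest, a log2 intensity of 7.02. Per array that percentile ran from 6.62 to 7.02 (log2 intensity) in SThdh7/7 and from 6.17 to 6.28 in SThdh111/111. SThdh7/7 samples 1 and 2 stood apart, with median intensities of 173.9 and 174.0 against 136.2 to 147.0 on the other 6 arrays. A difference given for a member above the floor that changed sign or moved by over 1.5 times without them is given both ways. Of the 16 probe sets, 5 were above the floor on all 8 arrays, 4 were below it on all 8 and 7 were mixed. Of 9 measured striatal projection neuron markers, Ppp1r1b and Drd1 were below the floor on all 8 arrays, and Foxp1 and Rgs9 were above it on all 8. Penk was above it on 1 SThdh7/7 array and all 4 SThdh111/111 arrays. Tac1, Drd2, Pde10a and Bcl11b were each above it on 1 to 3 arrays of each line.

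The sequences before the annotated starts of Artn and Gdnf are shown because these members differed most between the lines among those above the floor in at least 1 line. They are the 250 bases before each start in RefSeq (build GRCm38.p6), which listed 1 start for Artn and 2 for Gdnf. Artn lies at chr4:117929764-117930013 on the minus strand. The Gdnf windows lie at chr15:7809798-7810047 and chr15:7813477-7813726 on the plus strand. Capitals mark matches to 5 motifs searched on both strands, and no matches overlapped. The TATA box was searched as TATAAA. The CCAAT box was searched by the letters of its name. The GC box was searched as GGGCGG. The half-site of the cAMP response element was searched as TGACGT. The AP-1 site was searched as TGANTCA.
Artn window: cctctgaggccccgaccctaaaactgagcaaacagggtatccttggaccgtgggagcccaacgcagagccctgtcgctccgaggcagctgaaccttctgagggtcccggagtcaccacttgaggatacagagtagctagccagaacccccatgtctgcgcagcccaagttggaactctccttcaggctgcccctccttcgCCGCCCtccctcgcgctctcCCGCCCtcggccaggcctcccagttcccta
Gdnf window at the first start: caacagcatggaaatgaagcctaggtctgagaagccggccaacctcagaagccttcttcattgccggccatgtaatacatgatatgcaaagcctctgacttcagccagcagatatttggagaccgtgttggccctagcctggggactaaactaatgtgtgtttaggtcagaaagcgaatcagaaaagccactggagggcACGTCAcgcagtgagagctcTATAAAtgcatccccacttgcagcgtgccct
Gdnf window at the second start: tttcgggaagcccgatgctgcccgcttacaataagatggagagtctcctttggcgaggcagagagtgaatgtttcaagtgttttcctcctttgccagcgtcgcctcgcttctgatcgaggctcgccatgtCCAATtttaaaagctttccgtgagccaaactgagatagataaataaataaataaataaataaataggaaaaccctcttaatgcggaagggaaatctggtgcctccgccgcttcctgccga

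The Artn window held 2 GC boxes, and both lay on the strand opposite to the one printed. The first Gdnf window held 1 half-site of the cAMP response element, read on the opposite strand, and 1 TATA box ahead of the start. The second held 1 CCAAT box. No motif of the 5 was common to Artn and Gdnf in these windows. Across 32817 windows of the same length, a GC box was present in 32.7%, a CCAAT box in 33.8%, a TATA box in 12.4%, the half-site in 6.46% and an AP-1 site in 6.75%. The share of G and C was 63.6% in the Artn window and 50.8% and 46.8% in the Gdnf windows, against a median of 52.4%. RefSeq gave windows for 6 of the 9 genes. These matches describe letters, not bound factors.

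Artn showed the widest separation of the ligand genes. Artemin supports sensory and sympathetic neurons. Its probe set (1432032_a_at) read 9.84, 9.49, 9.72 and 9.60 (log2 intensity) in SThdh7/7 samples 1 to 4, and 3.84, 6.81, 4.55 and 4.50 in SThdh111/111 samples 1 to 4. All 4 SThdh7/7 arrays were bright and close together, and all 4 SThdh111/111 arrays were below the floor, with sample 2 nearest to it. The means were 9.66 ± 0.15 and 4.93 ± 1.30 (SD, n = 4), a difference of -4.73 ± 0.51 (SE). Because the SThdh111/111 values were below the floor, Artn is best given as at least 6.23-fold lower there, the mean of SThdh7/7 over the floor. The difference was -4.73 without SThdh7/7 samples 1 and 2. Set against each array's own control percentile, Artn was above it on 1 of 4 SThdh111/111 arrays. A smaller share of expressing cells and less RNA per cell cannot be told apart in these bulk samples.

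Gdnf itself was the other ligand gene whose lines did not overlap. Its probe set (1419080_at) read 8.64, 8.91, 8.48 and 8.23 (log2 intensity) in SThdh7/7 and 7.56, 7.60, 5.47 and 6.74 in SThdh111/111, in order of sample number. The lowest SThdh7/7 array was above the highest SThdh111/111 array. The SThdh111/111 values straddled the floor, with samples 1 and 2 above it and samples 3 and 4 below. Gdnf was above the array's own control percentile on 3 of 4 SThdh111/111 arrays. The means were 8.57 ± 0.28 and 6.84 ± 1.00 (SD, n = 4), a difference of -1.72 ± 0.40 (SE). Raising the values below the floor to it gave a difference of -1.26, a lower bound on its size. The difference as deposited was -1.26 without SThdh111/111 sample 3 and -1.51 without SThdh7/7 samples 1 and 2, where it no longer passed the threshold of the fit.

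**Figure D1:**
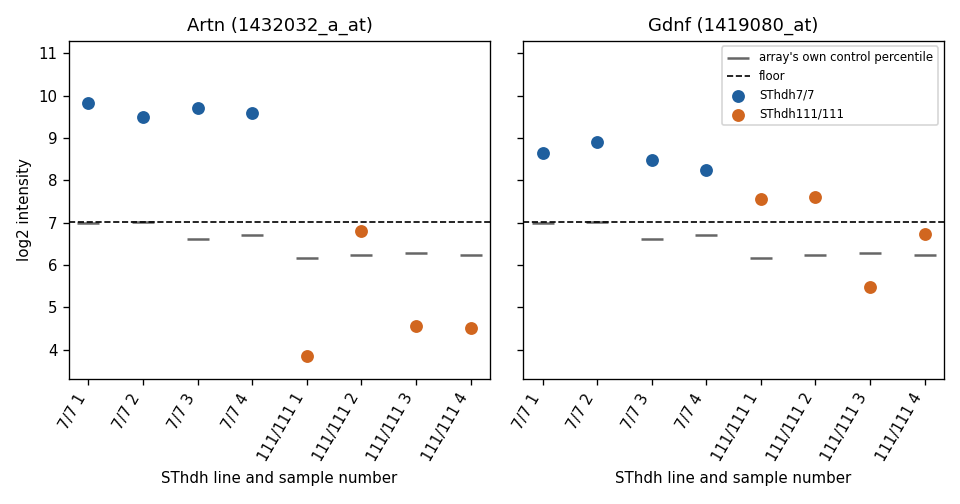
Log2 intensity of Artn (left) and Gdnf (right) on each of the 8 arrays. Blue points are SThdh7/7 and orange points SThdh111/111, short bars are each array's own 95th percentile of the bacterial controls, and the dashed line is the floor at 7.02. Artn was at 9.49 or above on every SThdh7/7 array and below the floor on every SThdh111/111 array, while 2 of the 4 SThdh111/111 values of Gdnf were above the floor.

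The other pair of ligand genes overlapped between the lines. Nrtn encodes neurturin, a factor for parasympathetic and enteric neurons. It was measured at 8.41 to 8.82 (log2 intensity) in SThdh7/7 and 8.34 to 8.77 in SThdh111/111, above the floor on all 8 arrays, with a difference of -0.06 ± 0.15 (SE), or 0.05 without SThdh7/7 samples 1 and 2. Pspn encodes persephin. It read 8.40, 8.09, 6.74 and 6.88 in SThdh7/7 and 7.67, 6.80, 6.87 and 7.91 in SThdh111/111, so 2 arrays of each line were above the floor. The high SThdh7/7 arrays were samples 1 and 2, and the difference turned from -0.21 ± 0.41 (SE) to 0.50 without them. Nrtn and Pspn lie on the same chromosome, 17, with 11 annotated genes between them in the RefSeq table.

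Among the co-receptor genes, Gfra1, Gfra2 and Gfra3 each had 1 probe set above the floor on all 8 arrays, and Gfra4 had none. Gfra3, the artemin co-receptor gene, read 8.61, 9.22, 8.62 and 7.87 (log2 intensity) in SThdh7/7 and 8.68, 8.74, 9.12 and 8.92 in SThdh111/111. The lines overlapped, and the difference was 0.29 ± 0.23 (SE), or 0.62 without SThdh7/7 samples 1 and 2. With all 8 arrays, the lines were thus separated at Artn and not at the gene of its co-receptor. The overlap at Gfra3 rested on SThdh7/7 sample 2, without which the difference was 0.50.

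Gfra1, the GDNF co-receptor gene, had 3 probe sets. The one above the floor on all 8 arrays (1439015_at) read 8.71, 8.82, 8.43 and 8.20 (log2 intensity) in SThdh7/7 and 7.80, 8.19, 8.41 and 8.28 in SThdh111/111, a difference of -0.37 ± 0.19 (SE) with overlap. Without SThdh7/7 samples 1 and 2 it was -0.15. The second (1450440_at) read 7.57, 7.97, 7.57 and 7.50 against 7.29, 7.17, 5.20 and 7.19, with no overlap. Its difference of -0.94 ± 0.43 (SE) rested in part on SThdh111/111 sample 3 and was -0.44 without that sample. The third (1421973_at) was below the floor on all 8 arrays, and no fold is given for it. The lower values of SThdh111/111 at the first pair of probe sets were thus small, and 1 of the pair overlapped. The control percentile was also lower on every SThdh111/111 array than on any SThdh7/7 array. Its part in these differences was not tested.

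Gfra2, the neurturin co-receptor gene, had 5 probe sets that did not move together. The only one above the floor on all 8 arrays (1425579_at) had line means of 8.42 ± 0.23 in SThdh7/7 and 8.48 ± 0.11 in SThdh111/111 (log2 intensity, SD, n = 4), a difference of 0.07 ± 0.16 (SE), or 0.26 without SThdh7/7 samples 1 and 2. Another (1423007_a_at) read 7.71, 6.53, 7.15 and 6.80 in SThdh7/7 and 5.62 to 6.19 in SThdh111/111. These lines did not overlap, but 2 of the 4 SThdh7/7 arrays and all SThdh111/111 arrays were below the floor, which leaves it at least 1.02-fold lower. In the opposite direction, 1425578_a_at was at 3.31 to 6.16 in SThdh7/7 and 6.18 to 7.06 in SThdh111/111. In SThdh111/111, 1 array was above the floor. Above their own control percentile were 3 of 4 SThdh111/111 arrays and 0 of 4 SThdh7/7 arrays. The remaining 1433716_x_at and 1459847_x_at were below the floor on all 8 arrays. The first of them was at 5.94 ± 0.45 (SD, n = 4) and 3.23 ± 1.05 with no overlap, and both names end in a suffix for probes that may match other transcripts. Gfra4, the persephin co-receptor gene, spread over 5.85 to 8.53 in SThdh7/7 and 6.82 to 7.75 in SThdh111/111, a difference of 0.06 ± 0.48 (SE). That value was 0.55 without SThdh7/7 samples 1 and 2, and ran from -0.42 to 0.48 with 1 sample left out.

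Ret, the shared signalling receptor gene, had 1 readable probe set. It (1421359_at) read 8.58, 8.07, 8.29 and 8.13 (log2 intensity) in SThdh7/7 and 7.47, 8.28, 8.28 and 8.12 in SThdh111/111, all above the floor. SThdh111/111 sample 1 was the lowest array and the other 3 lay among the SThdh7/7 values. The difference was -0.23 ± 0.22 (SE), and -0.04 without that sample. The other Ret probe set (1436359_at) was below the floor on all 8 arrays, at 1.98 to 5.49.

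**Figure D2:**
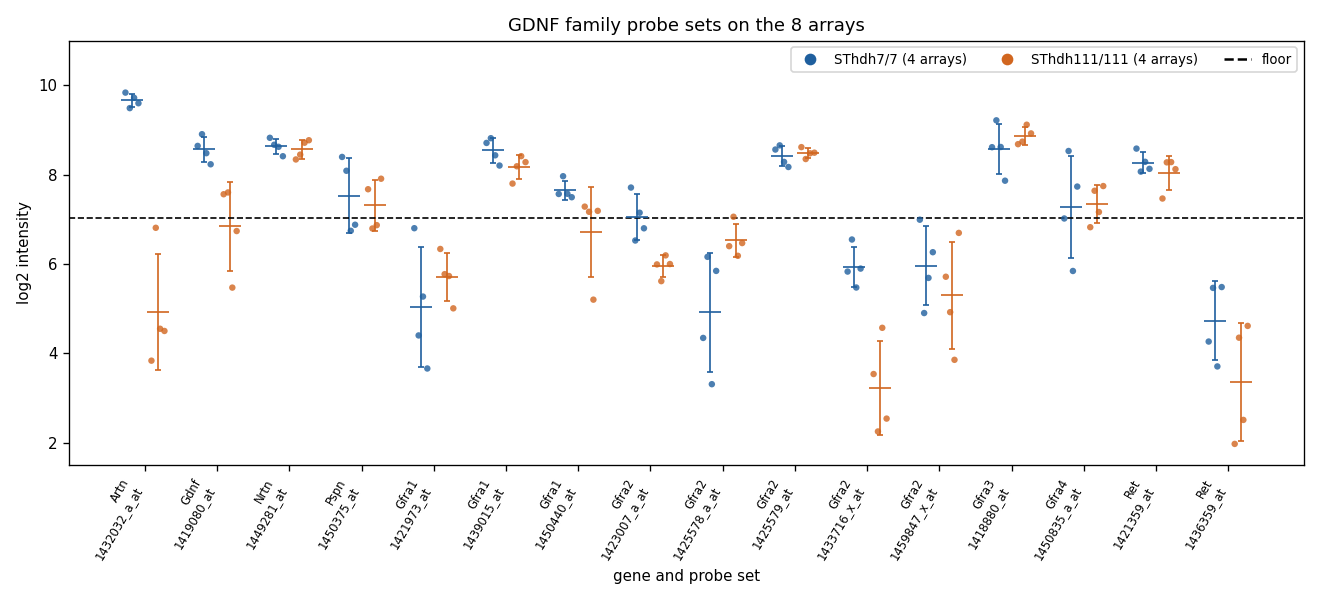
Log2 intensity of the 16 probe sets of the 9 genes. Points are arrays, horizontal marks and bars are the mean and SD of 4 arrays, blue is SThdh7/7, orange is SThdh111/111 and the dashed line is the floor at 7.02. Artn and Gdnf are separated by line, and 5 probe sets of Nrtn, Gfra1, Gfra2, Gfra3 and Ret lie above the floor on all 8 arrays with overlapping lines.

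Counted over the family, 6 of 16 probe sets had lines that did not overlap, 5 lower and 1 higher in SThdh111/111. Over all 41409 kept probe sets the share without overlap was 25.1%, and 14.1% were without overlap and lower. In the limma fit over all kept probe sets, 3 of the 16 were past an adjusted p of 0.05, all lower (Artn, Gdnf and Gfra2 at 1433716_x_at), and 0 were higher. At an unadjusted p under 0.05 the counts were 5 lower and 1 higher. The background in that fit was 22.4% called, 12.6% lower and 9.87% higher, and nothing is read from the family's counts since the genes were chosen on this contrast. The called Gfra2 probe set was below the floor on all 8 arrays. The median difference of the 16 probe sets was -0.30, with several sharing a gene, against -0.12 over all kept probe sets. With the arrays centred on their medians that background was 0.04, the counts of all probe sets were 4245 higher and 2777 lower in place of 4088 and 5200, and the same count of 3 family probe sets was lower.

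**Figure D3:**
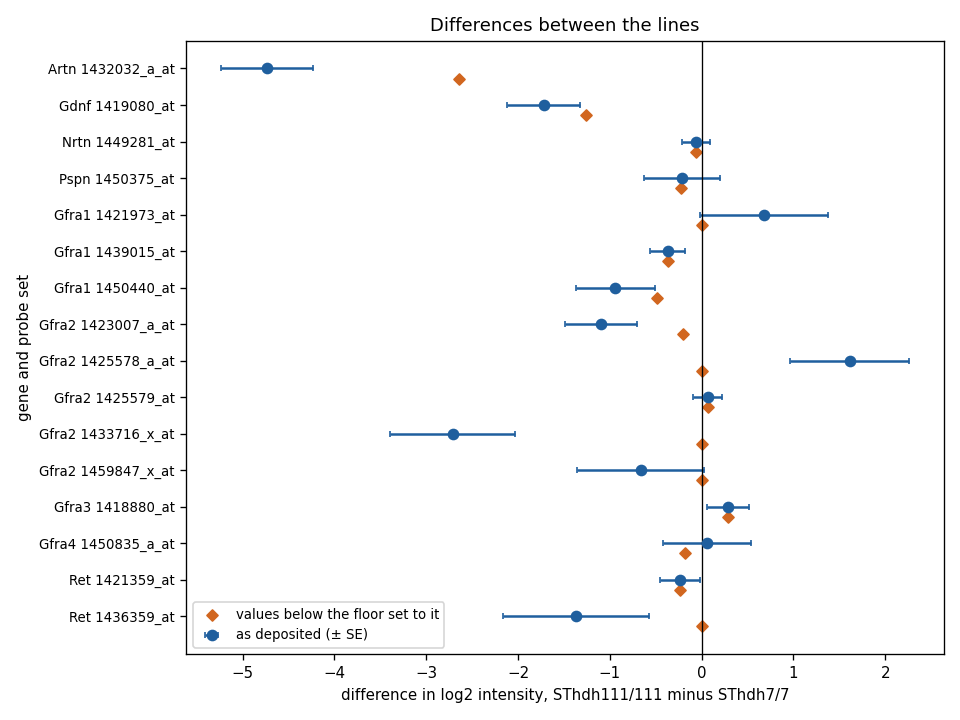
Difference in log2 intensity between the lines for the 16 probe sets, SThdh111/111 minus SThdh7/7. Circles with bars are the deposited values with the SE of the fit, and diamonds are the differences after values below the floor were set to it. Artn went from -4.73 to -2.64 and Gdnf from -1.72 to -1.26, and the 4 probe sets below the floor on all 8 arrays went to 0.00.

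The other genes of the pathway were taken from 4 lists, which were chosen with earlier results of these data known. Their counts and p-values are thus a description. Of 98 listed genes 77 had a kept probe set named for them alone, and the brightest of each gene was used. Over all 17389 named genes 13.1% rose and 15.9% fell in SThdh111/111 (29.0% called in all). Across the 4 lists 19 rose and 22 fell, with a median difference of -0.07 against -0.09 over all named genes.

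Genes listed as other partners at the cell surface were lower where their brightest probe set was called. Of 10 measured genes 6 fell and 0 rose, with a median difference of -0.60, and 1 was higher and 6 lower at an unadjusted p under 0.05 in limma. Ncam1, an adhesion molecule that can bind GDNF together with Gfra1, had means of 9.70 ± 0.16 in SThdh7/7 and 6.90 ± 0.29 in SThdh111/111 (log2 intensity, SD, n = 4). With 1 SThdh111/111 array above the floor, it fell by at least 2.63 in log2 intensity (limma adjusted p = 6.6e-08), and 3 of its other 6 kept probe sets were called lower. The integrin subunit gene Itga6 fell by 1.48 in log2 intensity, from 10.17 ± 0.08 to 8.69 ± 0.07 (adjusted p = 6.7e-08), and its 1 other kept probe set was called lower too. Whether the Itga6 protein binds a ligand or Ret was not measured. Sort1 was among the 6, but its call was lost in 5 of 8 fits without 1 sample and after centring, where 5 genes were lower. Sdc3, a heparan sulfate proteoglycan that binds GDNF, differed by 0.46 ± 0.31 (SE; adjusted p = 0.36) and was called higher without SThdh7/7 samples 1 and 2, at 1.05. Of the other 2 kept probe sets of Sdc3, 1 was called higher with all 8 arrays.

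Adaptors and kinases that act below Ret moved both ways. Of 29 measured genes 6 rose and 7 fell, with a median difference of -0.12, and 5 were higher and 2 lower after centring. Gab1, a docking protein of the PI3-kinase branch, rose by 1.06 ± 0.13 (SE; limma adjusted p = 4.4e-05), and its other 2 kept probe sets were called higher too. Sh3kbp1, which takes part in receptor endocytosis with Cbl, rose by 0.73 ± 0.09 (SE; adjusted p = 5.1e-05), as did 2 of its other 3 kept probe sets. Pdlim7, whose protein binds the tail of Ret, fell by 1.53 in log2 intensity (adjusted p = 1.2e-07), and its other 2 kept probe sets were called lower too. The docking protein gene Dok1 fell by 0.95 in log2 intensity (adjusted p = 1.3e-06). Shc1, the adaptor that starts the Ras branch, differed by -0.04 ± 0.08 (SE; adjusted p = 0.78).

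Transcripts known to respond to Ret in kidney or germ cells were also mixed. Of 20 measured genes 3 rose and 6 fell, with a median difference of -0.41. Id4, an inhibitor of basic helix-loop-helix factors, fell by 2.77 in log2 intensity, from 10.13 ± 0.11 to 7.36 ± 0.22 (SD, n = 4; limma adjusted p = 6.4e-09). Spry1, a feedback inhibitor of Ret signalling, fell by 1.34 in log2 intensity (adjusted p = 2.7e-07). The immediate early gene Fos rose by 1.47 ± 0.12 (SE; adjusted p = 5e-07) and the protease gene Mmp14 by 0.63 ± 0.06 (SE; adjusted p = 5.8e-06). The other 2 kept probe sets of Id4 were called lower and the other 2 of Mmp14 higher. Etv5, an ETS factor induced by Ret, differed by 0.22 ± 0.25 (SE; adjusted p = 0.63). The calls of Dusp6 and Lhx1 were lost without SThdh7/7 samples 1 and 2.

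Regulators of Gdnf and Ret expression, drawn mainly from kidney and neural crest development, made up the last list. Of 18 measured genes 10 rose and 3 fell, with a median difference of 0.72, and the counts after centring were the same. Eya1, a coactivator upstream of Gdnf in kidney, was below the floor on all 4 SThdh7/7 arrays and at least 13.5-fold higher in SThdh111/111 (limma adjusted p = 1.5e-09). Slit2, a guidance ligand that limits the domain of Gdnf expression, rose by 1.74 ± 0.08 (SE; adjusted p = 1.5e-09). Eya1 and Slit2 each had 2 other kept probe sets, of which 1 was called higher and 0 lower. Grem1, an antagonist of BMP that keeps GDNF signalling going, fell by 3.34 in log2 intensity, from 12.10 ± 0.09 to 8.76 ± 0.06 (SD, n = 4; adjusted p = 2.2e-12). Six4 fell by 1.46 in log2 intensity (adjusted p = 3.7e-06), and its other 3 kept probe sets were called lower. Dok1, Spry1, Fos and Grem1 had no other kept probe set.

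**Figure D4:**
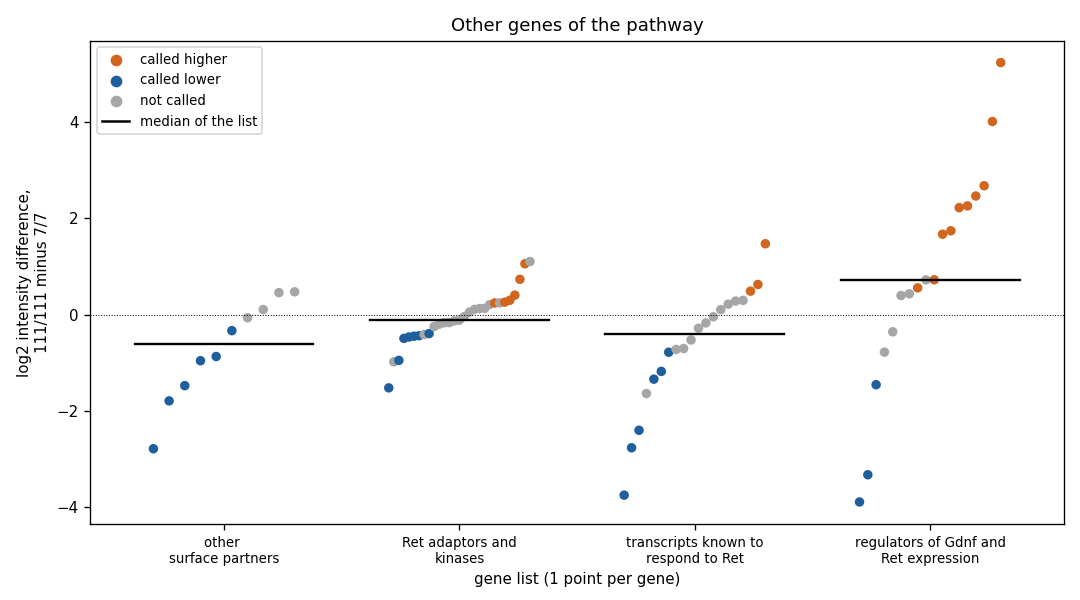
Difference in log2 intensity between the lines for the 77 measured genes of the 4 lists, 1 point per gene at its brightest probe set. Orange points were called higher and blue points lower in SThdh111/111, grey points were not called, and black lines are list medians, which run from -0.60 for surface partners to 0.72 for regulators.

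Marker lists of the cell types a culture could hold were set beside these values. Fibroblast markers moved with the lines as a sum, though Thy1 was above the floor on only 1 array of each line (means of 6.53 and 6.71). The summed intensity of the 7 measured fibroblast genes was 19432 to 21657 in SThdh7/7 and 90216 to 105255 in SThdh111/111, with Dcn and Lum below the floor on all SThdh7/7 arrays. Astrocyte markers, 7 measured, summed to 6243 to 6537 and 8162 to 8807 (intensity), and the 9 striatal markers to 2445 to 2871 and 3286 to 3554. Within each of these 2 lists, means were higher in SThdh111/111 for some genes and lower for others. The astrocyte marker Aldh1l1 had means of 10.61 in SThdh7/7 and 8.15 in SThdh111/111 (log2 intensity), and the bright Gja1 had means of 12.04 and 12.76. The striatal marker Rgs9 had means of 9.35 and 8.65, while Penk had 6.67 and 9.63 and Foxp1 had 10.39 and 10.68. The part of these 3 lists in the differences of Artn and Gdnf was not tested. The summed levels of the dopaminergic, sensory, enteric and Schwann cell lists overlapped between the lines. Of 5 measured Schwann cell markers, S100b, Cdh19 and Foxd3 were below the floor on all 8 arrays. Of 5 measured sensory neuron markers, Isl1, Scn10a and P2rx3 were below it on all 8.

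Genes with profiles most like that of Artn were found by the root mean square distance between log2 values centred on each gene's own mean, over 8 arrays and 17380 genes. They were Sall1 (distance 0.62), Epb41l4a (0.64), Dpysl3 (0.70), Lhx2 (0.71) and Cyp2j9 (0.74). All 5 were above the floor on every SThdh7/7 array. In SThdh111/111 Sall1, Lhx2 and Cyp2j9 were below it on every array, so the distances depend in part on values below the floor.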

How the data were processed

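RNA of 4 SThdh7/7 and 4 SThdh111/111 samples, grouped by title, was measured on Affymetrix arrays. The deposited table holds 1 linear intensity per probe set and array. Per the submitters' processing notes the tool was GCRMA, but the mean trimmed by 2% at each end was 500.0 on every array and quantiles were not shared, so the tool and any background correction stay unsettled. Scaling to one mean can shift all differences, and dim probe sets are noisy. Log2 was taken, 64 control probe sets were left out, and probe sets at a log2 of at least 4 on at least 4 arrays were kept. Names came from the platform annotation, updated by Entrez number. limma 3.58.1 (R 4.3.3) gave differences with an intensity trend, two-sided, with Benjamini-Hochberg adjustment over 41409 probe sets. The fit was also run on simulated data with independent noise. That run cannot show the effect of offsets shared by a whole array. The members, lists and floor were chosen with earlier results of these data known. Named were all member probe sets, the 2 called genes of lowest adjusted p in each direction per list, and the 5 profiles nearest to Artn. Other list genes named (Sort1, Sdc3, Shc1, Etv5, Dusp6, Lhx1 and Hoxb5) were chosen after their values were seen. Same-numbered samples did not deviate together (correlations -0.01 to 0.01), so the fit used no pairing.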

Additional observations from a re-analysis of the deposited data

Results flagged for a closer look

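Of 32 groups of 4 arrays examined (16 probe sets in 2 lines), 2 held an array far from the other 3, both at the Gfra1 probe set 1450440_at. Chance sets apart about 5% of such groups. SThdh111/111 sample 3 read 5.20 (log2 intensity) against 7.17 to 7.29 on the other 3 arrays, a gap of 0.944 of the group's range. SThdh7/7 sample 2 read 7.97 against 7.50 to 7.57, a gap of 0.835. Both gaps are above the 95% limit of Dixon's test for 4 arrays.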

How the results depend on the processing

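Of the family's probe sets, the count called lower (3 as reported) was 1 without SThdh7/7 samples 1 and 2, where Artn kept its call, and 1 when probe sets ending in _x_at, _s_at or _a_at were left out, which removes that of Artn and leaves Gdnf. With 1 sample left out it ran from 3 to 4, and the count called higher from 0 to 1, the 1 being Gfra2 at 1425578_a_at without SThdh7/7 sample 2. Over all probe sets the calls were 2623 higher without those suffixes, where fewer were tested, and 2777 lower after centring of the arrays. With the sample number as a block 3 family probe sets were lower and 0 higher, and 20 list genes were higher and 21 lower in place of 19 and 22. The numbers did not pair the samples. Of 224 member differences recomputed under settings that can change a mean, 216 moved by less than the spread between replicates, 8 by more, and 11 had the other sign. Setting values below the floor to it was chosen after the data were seen. A probe set below the floor has only a bound, so differences under it cannot be read.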

Other observations

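The genes next to Artn and Gdnf were read after the values of both had been seen, as the nearest 2 measured genes on each side in the order of the RefSeq table. Beside Gdnf, the cytokine receptor genes Osmr and Lifr were below the floor on all 4 SThdh7/7 arrays and at least 36.8-fold and 17.1-fold higher in SThdh111/111 (limma adjusted p = 2.4e-13 and 1.3e-07), opposite in direction to Gdnf. On its other side Wdr70 and Nup155 differed by 0.25 ± 0.17 and 0.12 ± 0.11 (SE; adjusted p = 0.34 and 0.53). Beside Artn, the importin gene Ipo13 fell by 0.92 in log2 intensity (adjusted p = 2.1e-06) and the histone demethylase gene Kdm4a rose by 0.80 ± 0.10 (SE; adjusted p = 4.9e-05), while Dph2 and St3gal3 did not pass the threshold (differences -0.86 and -0.23, adjusted p = 0.23 and 0.28).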
